A study of Caenorhabditis elegans with 2 samples.

Results

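The pqn and abu genes of Caenorhabditis elegans were followed in 2 RNA sequencing libraries of whole fourth-stage (L4) larvae grown at 25 °C. Members were taken by name, as every gene called pqn or abu followed by a number in the deposited table. This gave 78 genes, 63 pqn and 15 abu, out of 46233 genes in all. The mutant library came from strain VC2324, labelled as a flp-6 mutant. The other came from the wild type strain N2. The labels give no allele and no other treatment. The flp-6 gene, which encodes FMRFamide-like neuropeptides, had 4.40 FPKM in mutant larvae and 57.95 FPKM in N2. FPKM counts fragments scaled to transcript length and to the size of the library. The values were taken to be FPKM from the processing tools that the submitters named. There was 1 library per genotype, so no test was made, and every value below describes 2 libraries without replicate error. The depth per library is unknown.

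The name pqn stands for a prion-like domain rich in glutamine and asparagine, a kind of low-complexity sequence that lets some proteins assemble reversibly. The name abu stands for activated in blocked unfolded protein response, since the first abu genes were found to be induced by endoplasmic reticulum stress in worms that lack the usual response through xbp-1. Several abu proteins and related pqn proteins, abu-14 among them, are known as parts of the cuticle that lines the pharynx, and their genes are switched on around each moult. The names therefore bring together genes with otherwise unlike functions, from cohesin loading to cuticle. The share of glutamine in each protein was not analysed here.

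The first comparison asked which of these genes were present in L4 larvae. Levels ran from values listed at 0 to 339 FPKM, that of pqn-59 in mutant larvae, with nearly all abu genes at the low end. Of the 78 members, 40 had under 1 FPKM in both libraries, which is 51.3% of them against 35.8% of all 20541 protein-coding genes. A value of 0.0001, which the authors' table lists in place of 0, stood in both libraries for 14 members, or 17.9%, against 12.3% of protein-coding genes. Among the abu genes 14 of 15 lay under 1 FPKM in both libraries, and among the pqn genes 26 of 63. All 15 abu genes together summed to 2.58 FPKM in mutant larvae and 3.97 FPKM in N2.

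The abu gene with the highest level was abu-13 (chromosome III from 6941888 to 6945898), at 1.57 FPKM in mutant larvae and 2.98 FPKM in N2. It was followed by abu-14 (chromosome II from 9225186 to 9227214), one of the genes of the pharyngeal cuticle, at 0.642 FPKM in mutant larvae and 0.393 FPKM in N2. The abu-11 gene, whose overexpression is known to lengthen worm life, had 0.0870 FPKM in mutant larvae and 0.215 FPKM in N2. All 3 transcripts were rare in both libraries. The abu-12 gene had 0.132 FPKM in mutant larvae and 0.214 FPKM in N2. The abu-8 gene had 0.0207 FPKM in mutant larvae and 0.112 FPKM in N2. The abu-2 gene had 0.0318 FPKM in mutant larvae and 0.0303 FPKM in N2. The other 9 abu genes were listed at 0 in at least 1 library. In the mutant library abu-3 stood at 0.0586 FPKM and abu-10 at 0.0318 FPKM, each listed at 0 in N2, and abu-3 is annotated as a pseudogene. The abu-7 gene was listed at 0 in mutant larvae and stood at 0.0226 FPKM in N2. The remaining abu-1, abu-4, abu-5, abu-6, abu-9 and abu-15 were listed at 0 in both libraries. At such levels no direction can be read between the libraries for the abu genes other than abu-13. The abu-13 value was lower in mutant larvae by less than 2-fold, with 1 library per genotype. In the authors' deposited table its p-value was 0.378 and its q-value 0.982, so its direction is uncertain too.

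Among the pqn genes, pqn-10, pqn-57, pqn-71, pqn-76, pqn-78, pqn-79, pqn-90 and pqn-91 were also listed at 0 in both libraries. A few others were listed at 0 in 1 library and below 1 FPKM in the other. The pqn-2 gene had 0.0356 FPKM in mutant larvae and was listed at 0 in N2. The pqn-97 and pqn-98 genes were listed at 0 in mutant larvae, and stood at 0.176 and 0.247 FPKM in N2. In the annotation pqn-97 and pqn-98 now bear the names srlf-36 and srlf-37.

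**Figure D1:**
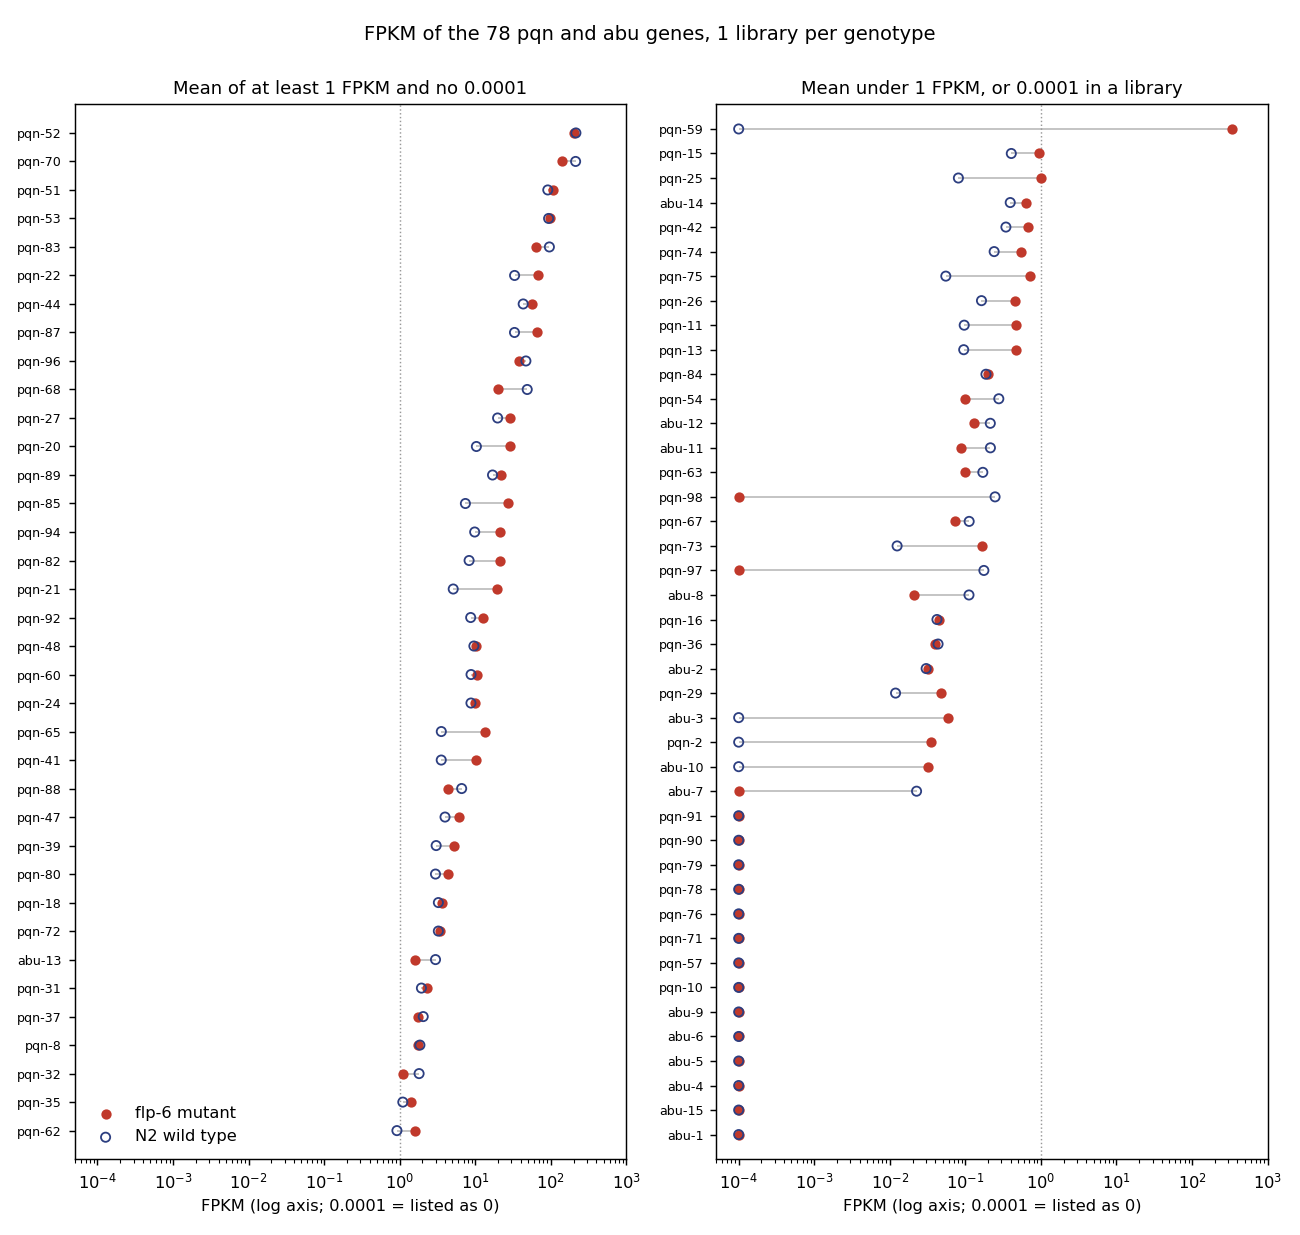
FPKM of each of the 78 genes on a log axis, with filled red points for the flp-6 mutant library and open blue points for the N2 library. The left panel holds the 36 genes compared below, which reach 215 FPKM, and the right panel holds the other 42, with 14 at 0.0001 in both libraries and pqn-59 at 339 FPKM in mutant larvae and 0.0001 in N2.

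Most of the genes listed at 0 in both libraries shared a gene structure, and many lay in small groups. By the WBcel235 annotation, 21 protein-coding members had 2 or 3 exons and a coding length of at least 900 nt. All 21 were under 1 FPKM in both libraries, with a highest value of 0.642 FPKM, and 13 were listed at 0 in both. Among all 840 genes of that structure, 57.4% were under 1 FPKM in both libraries and 24.5% were listed at 0 in both. This class was set after the levels had been seen. Of the 7 members with 2 or 3 exons and a shorter coding length, only pqn-97 and pqn-98 were under 1 FPKM in both libraries, against 35.3% of all genes of that structure. Of the 48 members with at least 4 exons, 15 were under 1 FPKM in both, against 31.8% of all such genes, and pqn-10 alone was listed at 0 in both, against 8.54%.

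**Figure D2:**
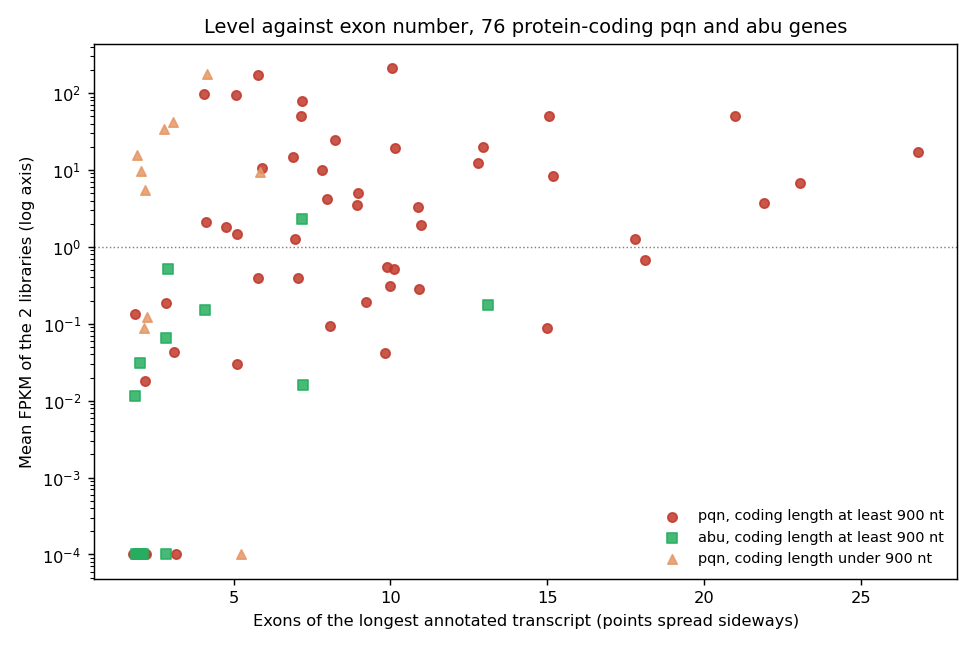
Mean FPKM of the 2 libraries on a log axis against the number of exons of the longest annotated transcript, for the 76 protein-coding members (red circles and orange triangles pqn, green squares abu). The 21 members with 2 or 3 exons and a coding length of at least 900 nt lie below the dotted line at 1 FPKM, and the mean of pqn-59, with 6 exons, joins 339 FPKM with a value listed at 0.

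Members that lay within 5000 nt of each other formed 6 groups holding 14 genes, and all 14 were under 1 FPKM in both libraries. All but pqn-97 and pqn-98 belong to the class of few exons and long coding length counted above, so this is no separate observation. The share of all closely spaced genes under 1 FPKM was not counted. Just past the limit, pqn-76 was listed at 0 in both libraries. Also just past it, pqn-21 and pqn-20, 10826 nt apart, were above 1 FPKM in both. On chromosome IV, abu-5, pqn-78 and pqn-79 lay between 15590697 and 15596645, and pqn-78 and pqn-79 pointed away from each other with 534 nt between them. All 3 have transcripts of 1008 nt and a coding length of 1005 nt, as does pqn-76, which ends 10535 nt before abu-5. Also on chromosome IV, pqn-90 and pqn-91 pointed away from each other with 644 nt between them. On chromosome V, abu-15, abu-6 and abu-7 lay between 5158602 and 5164782, and abu-1 and pqn-2 pointed away from each other with 615 nt between them. On chromosome X, pqn-57 and abu-9 were 1121 nt apart and had the same coding length of 1134 nt. Copies of equal length may share reads, so the value of any single gene of these groups is uncertain. How alike their sequences are was not analysed here.

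The abundant members were pqn genes with more varied structures. Of the members above 0.0001 in both libraries, pqn-52 had the highest mean (chromosome I from 5566343 to 5570085, reverse strand), with 204.4 FPKM in mutant larvae and 215.0 FPKM in N2. Of the protein-coding genes, 683 were higher than pqn-52 in mutant larvae and 926 in N2. Next came pqn-70 (chromosome V from 11226314 to 11228703), at 142.0 FPKM in mutant larvae and 213.1 FPKM in N2. Then came pqn-51 at 105.6 FPKM in mutant larvae and 91.3 FPKM in N2. The pqn-53 gene had 97.6 FPKM in mutant larvae and 93.6 FPKM in N2. These 4 genes differed by less than 2-fold. The pqn-83 gene had 63.4 FPKM in mutant larvae and 95.8 FPKM in N2. The pqn-44 gene, now named tent-5 and coding for a poly(A) polymerase, had 56.7 FPKM in mutant larvae and 43.1 FPKM in N2. The pqn-96 gene had 38.3 FPKM in mutant larvae and 46.8 FPKM in N2. These 3 were likewise within 2-fold, and neither library was the higher one throughout the genes named so far. The pqn-22 and pqn-87 genes, with means of 50.3 and 49.6 FPKM, were of like abundance. Both were higher in mutant larvae, with ratios of 2.03 and 1.997, and are described below.

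The pqn-59 gene (chromosome I from 379071 to 381902, reverse strand) encodes the worm relative of human UBAP2L, a protein of stress granules, and was the member with the highest value of all. Its value was 339.1 FPKM in mutant larvae and 0.0001 FPKM in N2, so that no fold is given. In the authors' deposited table its p-value was 1. The 3 other genes that share its locus field showed the same listing. The rnp-8 gene, which encodes an RNA-binding protein of the germ line, had 63.2 FPKM in mutant larvae and 0.0001 in N2. R119.3 had 41.6 FPKM in mutant larvae and 0.0001 in N2, and R119.2 had 16.9 FPKM in mutant larvae and 0.0001 in N2, and all had a p-value of 1 there. All 4 neighbours were thus listed at 0 in N2, and whether that stands for absent RNA or for a failed estimate at this locus cannot be told from the table. Such listings occurred in both directions. Where the mean FPKM was 1 or more, 158 genes were at 0.0001 in mutant larvae only and 162 in N2 only. Of those 162, pqn-59 had the highest value in mutant larvae. Without pqn-59 the members summed to 1143 FPKM in mutant larvae and 1074 FPKM in N2, or 0.116% and 0.0759% of all FPKM.

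The second comparison asked which members differed between the mutant library and N2. Each difference is log2((mutant FPKM + 1)/(N2 FPKM + 1)), a scale that shrinks changes of rare transcripts. Genes were compared if their mean FPKM was 1 or more and neither value was 0.0001. This left 36 of the 78 members, 35 pqn genes and abu-13. Of these, 8 were 2-fold or more higher in mutant larvae, against 9.48% of all 13116 genes so compared, and 1 was 2-fold or more lower, against 10.4%. The other 27 lay within 2-fold, from -0.63 for abu-13 to 0.98 for pqn-87. The median difference of the 36 members was 0.22, against -0.10 for all genes compared. By any amount, 26 members were higher in mutant larvae and 10 lower. With the FPKM sums made equal, 30 were higher and 6 lower by any amount. That rescaling moved the median of all compared genes upward by 0.45. The shares of all compared genes higher or lower by any amount were not counted under either scaling. With equal sums 11 members were higher by 2-fold or more, against 19.7% of all genes compared, and 0 were lower by that much, against 1.97%. All members past 2-fold were pqn genes, as were 35 of the 36 members compared.

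**Figure D3:**
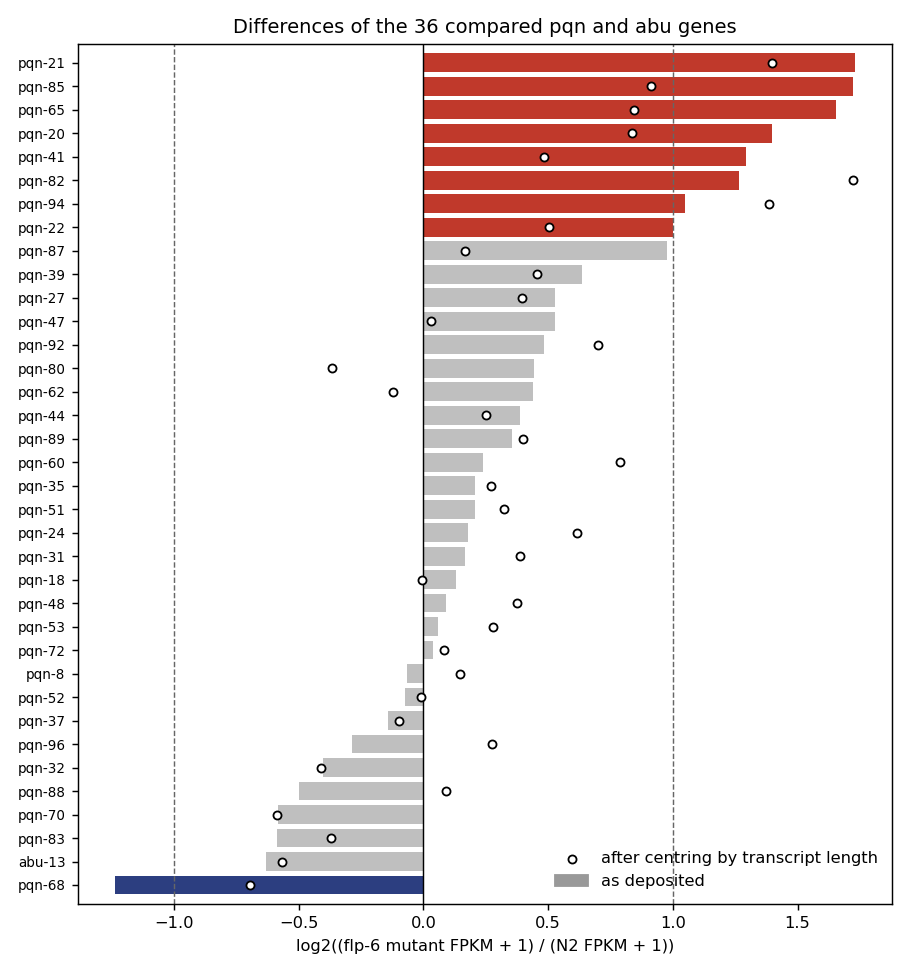
Log2 differences of the 36 compared genes, with bars for the values as deposited (red 2-fold or more higher in mutant larvae, blue 2-fold or more lower, grey within 2-fold) and open circles for the values after centring by transcript length. The 8 red bars run from pqn-22, at the dashed line, to 1.73 for pqn-21, and 3 of these 8 have circles past the dashed line at 1.

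The pqn-21 gene (chromosome I from 6773973 to 6780151, reverse strand, 3155 nt) had 19.3 FPKM in mutant larvae and 5.11 FPKM in N2, a difference of 1.73. Its neighbour among the members, pqn-20 (chromosome I from 6790978 to 6798161, forward strand, 4645 nt), began 10826 nt further on. It had 28.9 FPKM in mutant larvae and 10.4 FPKM in N2, a difference of 1.40. Both of these neighbours were thus more than 2-fold higher in mutant larvae.

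The pqn-85 gene, now named scc-2, encodes the loader that places cohesin rings on chromosomes, the worm counterpart of human NIPBL. It lies on chromosome II from 240705 to 263663, and its longest transcript of 7052 nt in 27 exons is the longest among the members. It had 26.8 FPKM in mutant larvae and 7.41 FPKM in N2, a difference of 1.72. The pqn-41 gene (chromosome III from 1905958 to 1939570) encodes a glutamine-rich protein required for the programmed death of the linker cell, which leads the growing gonad in males. It had 10.2 FPKM in mutant larvae and 3.55 FPKM in N2, a difference of 1.30. The pqn-65 gene (chromosome X from 4610911 to 4619635) had 13.4 FPKM in mutant larvae and 3.56 FPKM in N2, a difference of 1.66. The longest transcripts of pqn-41 and pqn-65 have 6389 and 6452 nt, so these 3 genes are the longest of the compared members past 2-fold.

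The pqn-22 gene, with 20 annotated transcripts, stood at the edge of the 2-fold limit. It had 67.5 FPKM in mutant larvae and 33.2 FPKM in N2, and so passed it with a ratio of 2.03. Just under the limit, pqn-87 had 66.1 FPKM in mutant larvae and 33.1 FPKM in N2, and a ratio of 1.997. The pair is therefore alike in size although only pqn-22 is counted. The last 2 members counted as higher were short. The pqn-82 gene (938 nt) had 21.3 FPKM in mutant larvae and 8.30 FPKM in N2, a difference of 1.26. The pqn-94 gene, with the shortest transcript of the compared members at 382 nt, had 21.4 FPKM in mutant larvae and 9.84 FPKM in N2, a difference of 1.05. The member counted as lower, pqn-68 (chromosome V from 12952636 to 12953208, 475 nt), had 20.1 FPKM in mutant larvae and 48.8 FPKM in N2, a difference of -1.24. With FPKM sums of the libraries made equal, the difference of pqn-68 was -0.74 and no longer 2-fold. That rescaling moved the median of all compared genes upward by 0.45. The 9 members past 2-fold kept their sign with the same FPKM sum, with the median difference of well expressed genes (mean FPKM of 5 or more) put at 0, and after centring by length.

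The pqn-47 gene, now named myrf-1, encodes a membrane-bound transcription factor required for the worm to complete its larval development. It had 6.19 FPKM in mutant larvae and 3.98 FPKM in N2, a difference of 0.53, or 0.03 once centred by length.

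The members' differences went with transcript length, as did those of all genes. Of the 10 compared members with a transcript of at least 3000 nt, 6 were 2-fold or more higher in mutant larvae and 0 lower, with a median of 1.15. Among all 1269 compared genes of that length, 14.3% were 2-fold or more higher and 0.867% lower, with a median of 0.55. Of the 26 shorter members, 2 were 2-fold or more higher and 1 lower, with a median of 0.11. Among the 11730 shorter genes, 8.94% were 2-fold or more higher and 11.5% lower, with a median of -0.19. Both length classes of members thus had a median above that of all genes of the class. The limit of 3000 nt was chosen after the values had been seen.

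Centring sorted the genes into 40 bins of like transcript length and took the median of its bin from each difference. After it 3 members were 2-fold or more higher, against 10.9% of the 12999 genes centred, and 0 were lower, against 3.15%. These were pqn-82 at 1.72, pqn-21 at 1.40 and pqn-94 at 1.39. The long pqn-85, pqn-65 and pqn-20 stood at 0.91, 0.84 and 0.84, pqn-22 at 0.51 and pqn-41 at 0.48. The median of the 36 members was 0.28 after centring.

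**Figure D4:**
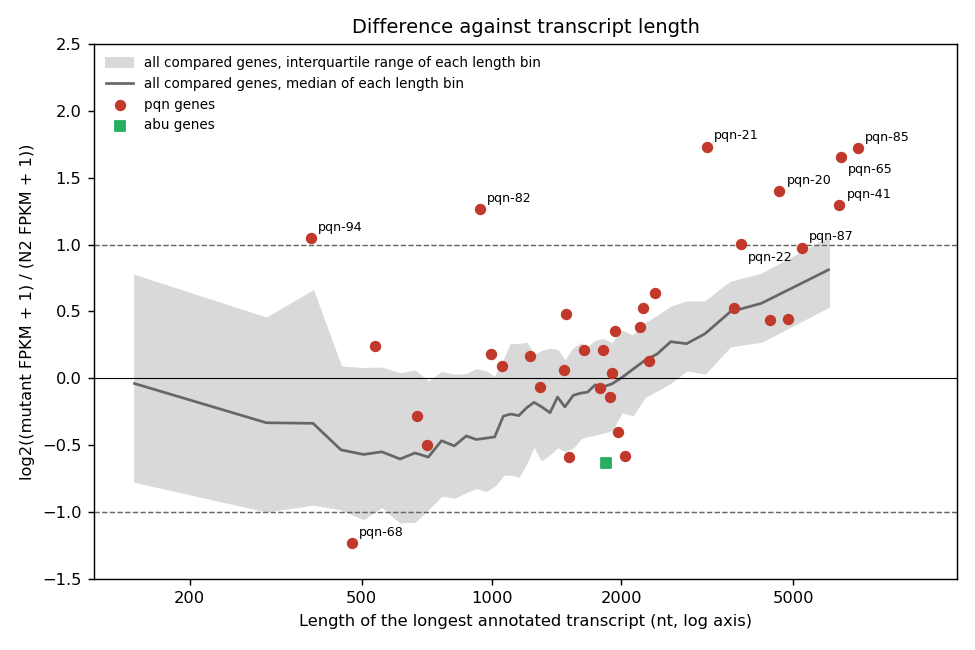
Log2 difference between the mutant and N2 libraries against the length of the longest annotated transcript (log axis), with red circles for pqn genes and a green square for abu-13. The grey line and band give the median and the interquartile range of all compared genes in 40 length bins. The pqn-20, pqn-21 and pqn-22 genes lie above the band, as do the short pqn-82 and pqn-94, while pqn-41, pqn-65 and pqn-85 lie beyond its right end.

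In the authors' deposited table, 5 of the 36 compared members had a p-value under 0.05, against 3.86% of all compared genes. All 5 were higher in mutant larvae, against 2.4% of all compared genes that were both under that p-value and higher. They were pqn-85 with a p-value of 0.0087, pqn-65 with 0.0111, pqn-21 with 0.0196, pqn-20 with 0.0310 and pqn-41 with 0.0454 in the authors' deposited table. Each had a q-value of 0.951 there, and the lowest q-value of any member was also 0.951. That comparison sets these libraries, not the genotypes, against each other. All 5 members have a longest transcript of at least 3000 nt. Among all compared genes of that length the median difference was 0.55, and their share under that p-value was not counted. After centring by length pqn-21 alone of the 5 was past 2-fold, at 1.40.

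A further 21 members were above 0.0001 in both libraries with a mean under 1 FPKM. Of these, 14 (66.7%) were higher in mutant larvae and 7 lower, against 42.6% higher among all 4291 genes of that kind, and at such levels the direction of a single gene is uncertain. Their values ran from 0.0207 to 1.01 FPKM in mutant larvae and from 0.0119 to 0.406 FPKM in N2. The widest gaps in FPKM between the libraries, named after their values were seen, were those of pqn-25, at 1.01 FPKM in mutant larvae and 0.0809 FPKM in N2, and of pqn-75, at 0.724 FPKM in mutant larvae and 0.0551 FPKM in N2. In the authors' deposited table pqn-25 had a p-value of 0.0576 and pqn-75 one of 0.0487, each with a q-value of 0.951. The pqn-13 gene had 0.470 FPKM in mutant larvae and 0.0951 FPKM in N2. The pqn-11 gene, annotated as a pseudogene, had 0.474 FPKM in mutant larvae and 0.0966 FPKM in N2.

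Genes of the tissues and processes that abu genes are known for were read beside them. In whole larvae, fewer cells of a type and less RNA per cell cannot be told apart. Of 16 pharynx markers in the table, 10 could be compared. Of these 1 was 2-fold or more higher in mutant larvae, against 9.48% of all compared genes, and 0 were lower, against 10.4%. The median was 0.43, or 0.34 once centred by length. Pharyngeal muscle myosin myo-2, with a transcript of 6334 nt, had 1.68 FPKM in mutant larvae and 0.572 FPKM in N2. Its difference was 0.77, or -0.04 once centred by length. The pharyngeal troponin gene tni-4 had 36.4 FPKM in mutant larvae and 45.0 FPKM in N2. The phat-6 gene, of a family expressed in the pharyngeal glands, had 2.19 FPKM in mutant larvae and 0.394 FPKM in N2. Chitin synthase chs-2, which makes chitin for the pharyngeal cuticle, had 0.385 FPKM in mutant larvae and 0.174 FPKM in N2. Markers of pharyngeal muscle were thus detected in both libraries. The summed level of the markers was 66.5 FPKM in mutant larvae and 75.2 FPKM in N2, with phat-5 listed at 0 in both and phat-1 in the mutant library.

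Moulting and cuticle genes were mostly lower in mutant larvae. The listed myrf-1 gene is a member, pqn-47, at a difference of 0.53, and was left out of the counts that follow. Of 22 others found by name, 17 could be compared. Of these 0 were higher by 2-fold or more, against 9.48% of all compared genes, and 4 were lower by that much, against 10.4%. The median was -0.75, against -0.10 for all compared genes. With equal FPKM sums it was -0.26 and no gene of the list was 2-fold lower, and centred by length it was -0.54. The lowest differences were those of the apical matrix gene noah-1, at -1.33, mlt-8 at -1.12, and the cuticle collagens sqt-1 at -1.05 and bli-2 at -1.04. The moulting gene mlt-10 had 1.33 FPKM in mutant larvae and 1.34 FPKM in N2. The nuclear receptor nhr-23, which drives each moult, had 24.1 FPKM in mutant larvae and 13.8 FPKM in N2. Their part in the differences of the members was not tested.

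The genes of the unfolded protein response, after which the abu genes were named, were well expressed. All 8 genes listed for endoplasmic reticulum stress and abu regulation were compared and lay within 2-fold, with a median of 0.31, or 0.09 once centred by length. All 8 were higher in mutant larvae by some amount, and the share of all compared genes so placed was not counted. The largest differences before centring were those of hsp-3 at 0.75, atf-6 at 0.65, pek-1 at 0.39 and ire-1 at 0.34. Once centred by length, hsp-3, atf-6, octr-1 and xbp-1 stood at 0.47, 0.47, 0.32 and 0.19. The hsp-4, pek-1, ire-1 and ced-1 genes then stood at -0.0008, -0.10, -0.16 and -0.21. With equal FPKM sums hsp-3 and atf-6 stood at 1.26 and 1.09, past 2-fold. That rescaling moved the median of all compared genes upward by 0.45. The chaperone hsp-4, a standard reporter of this stress, had 209.3 FPKM in mutant larvae and 190.8 FPKM in N2. The transcription factor xbp-1 had 203.6 FPKM in mutant larvae and 197.3 FPKM in N2. The ced-1 gene, a receptor of cell corpse engulfment that is known to be needed for abu expression under stress, had 13.6 FPKM in mutant larvae and 10.98 FPKM in N2. The octr-1 gene, a neuronal octopamine receptor known to restrain abu genes, had 2.07 FPKM in mutant larvae and 1.86 FPKM in N2.

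Markers of other tissues had medians above 0. Body wall muscle markers had 3 of 6 genes 2-fold or more higher in mutant larvae, against 9.48% of all compared genes. Their median was 0.75. These 3, the myosins unc-54 at 1.61 and myo-3 at 1.64 and the paramyosin unc-15 at 1.19, have transcripts of 6204, 6104 and 3424 nt. Among all compared genes of at least 3000 nt, 14.3% were 2-fold or more higher. The shorter mlc-1 and lev-11 of the same muscle stood at 0.01 and -0.11. None of 5 intestine markers and none of 4 epidermis markers that could be compared was past 2-fold, and their medians were 0.21 and 0.06. After centring by length the 3 stood at 0.80, 0.82 and 0.69, and the medians of the muscle, intestine and epidermis lists were 0.64, 0.33 and 0.14.

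**Figure D5:**
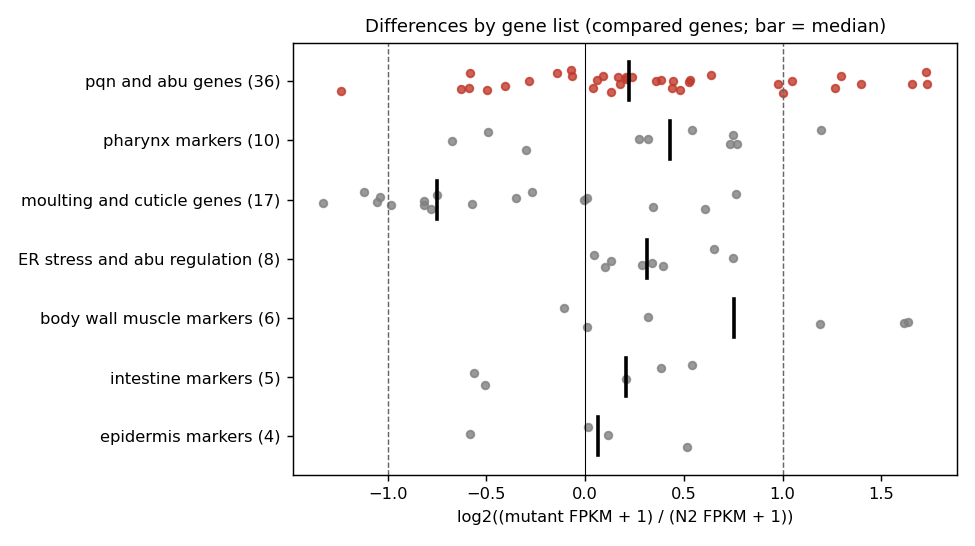
Log2 differences between the mutant and N2 libraries of the 36 compared pqn and abu genes (red) and of the compared genes of 6 other lists (grey), with black bars for medians. The pqn and abu median is 0.22, the moulting and cuticle median is -0.75 and the body wall muscle median is 0.75.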

How the data were processed

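Whole L4 larvae of 2 strains gave 1 library each. TopHat, Cufflinks and build WBcel235 are named, without versions, in the submitters' processing notes. The authors deposited 1 value per gene and library, with 0 listed as 0.0001. The headers give no unit. The values were taken to be FPKM, scaled to transcript and library size, because of the tools named. The deposited ratio and log2 ratio are mutant FPKM over N2 FPKM. The deposited p-value and q-value come from the authors' comparison of the 2 libraries. The use of strand in counting is not given in the sources, so overlapping genes are uncertain.

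From these values a log2 difference was computed with a pseudocount of 1, for genes whose mean FPKM was 1 or more with neither value at 0.0001. Genes past 2-fold were counted, without a test. Positions, exons and lengths came from Ensembl release 115 of WBcel235 and were found for all 78 members and 99.2% of all genes. The calculation was tested on simulated data with a straight length trend and less scatter than these libraries have. That test does not show how well centring works at the scatter found here.

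Members and lists were chosen with earlier results of these data known. Named genes were all abu genes, pqn genes past 2-fold, the 10 most abundant pqn genes, pqn genes at 0.0001 in 1 library whose mean FPKM was 1 or more, and pqn-59, pqn-85, pqn-41, pqn-47 and pqn-19 for their roles. The last is not used here. Alternatives were a pseudocount of 0.1, no filter, a minimum mean of 5 FPKM, 2 rescalings, centring by length and a 4-fold limit. Python 3.11.15, numpy 2.4.6, pandas 2.3.3 and matplotlib 3.10.9 were used.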

Additional observations from a re-analysis of the deposited data

How the results depend on the processing

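No paired analysis was possible because each genotype had 1 library. The medians of all members and of pqn genes stayed above 0 under the alternatives that gave a value, while the counts past 2-fold moved. Wherever a minimum mean of 1 FPKM applied, abu-13 was the only abu gene compared. It stayed below 0, which gives no direction for the abu genes as a family. With a pseudocount of 0.1 the pqn median was 0.35 and abu-13 stood at -0.88. Without a filter the abu median over 6 genes was -0.11, but 5 of them had a mean under 1 FPKM, where no direction can be read. At a mean of at least 5 FPKM the medians of all members and of pqn genes were both 0.39, and no abu gene was left. With the same FPKM sum the median of all members was 0.71, that of pqn genes 0.72, abu-13 stood at -0.28 and 0 members were 2-fold or more lower. With the median difference set to 0 these were 0.41, 0.42 and -0.45. After centring by length 3 members were 2-fold or more higher and 0 lower. At a 4-fold limit 0 were higher and 0 lower. The count of higher members was 8 to 11 under the other planned settings. It was also 8 with the authors' log2 ratio, and it was 6 among transcripts of at least 3000 nt, both chosen after seeing the data. The depth per library is unknown, so that levels near 0 have no counting interval.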
